A study of Mus musculus with 19 samples.

Results

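Most genes for subunits of the respiratory chain and the ATP synthase, 70 of 78, were lower in mouse angiosarcomas than in samples of normal aorta, and 70 of 78 were lower than in skeletal muscle. The 78 genes are among the 22180 genes measured, chosen by symbol as the nuclear genes for subunits of the 5 oxidative phosphorylation complexes. They comprise 33 genes of complex I (symbols starting with Nduf), 4 of complex II (Sdha to Sdhd), 8 of complex III (Uqcr), 15 of complex IV (Cox5 to Cox8) and 18 of complex V (Atp5). Of the 78 genes, 76 are annotated as protein coding and 2, Uqcrh-ps1 and Atp5c1-ps, as pseudogenes. Ndufa4 is counted with complex I by its symbol, although its protein is now regarded as a subunit of complex IV.

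RNA was measured on Affymetrix arrays, 1 array per sample, in 7 angiosarcomas, 4 aortas, 4 sternocleidomastoid muscles and 4 quadriceps femoris muscles. The tumors came from aP2-Cre/+;DicerFlox/- mice, in which Cre recombinase driven by the aP2 (Fabp4) promoter, active in adipocytes and also reported in some endothelial cells and macrophages, recombines a floxed allele of Dicer, the enzyme that produces mature microRNAs, in animals whose other Dicer allele is null. The aortas and both muscles came from wild type mice. Every mouse was of a mixed C57Bl/6 and 129X1/SvJ background. Ages are not given in the labels. Genotype and tissue change together in every tumor comparison, so their effects cannot be told apart. The labels do not say whether each sample came from a different animal, so the p-values measure only the spread between these samples. Sample numbers such as tumor 5 are names only.

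Oxidative phosphorylation couples the oxidation of nutrients to ATP production in the inner mitochondrial membrane. Complexes I and II pass electrons from NADH and succinate to ubiquinone, complex III passes them on to cytochrome c, and complex IV, cytochrome c oxidase, passes them to oxygen. Complexes I, III and IV pump protons, and complex V, the ATP synthase, uses the resulting gradient to make ATP. Heart and skeletal muscle have many mitochondria, as do brown adipocytes, which use the chain to make heat. Several subunits exist in a form typical of heart and skeletal muscle (Cox6a2, Cox7a1, Cox8b) and a widely expressed form (Cox6a1, Cox7a2, Cox8a). In mice Cox7a1 and Cox8b are also known as genes of brown adipocytes.

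The promoters below are those of 2 isoform pairs that the results turn on (Cox7a1 with Cox7a2 and Cox8b with Cox8a), of Cox6a1, and of Sdhd, a membrane anchor subunit of succinate dehydrogenase. Each is the RefSeq sequence of the GRCm38.p6 assembly from 250 bases before to 50 bases after the annotated start, printed 5′ to 3′ on the gene's strand. Capitals mark matches, on either strand, to the binding motifs of NRF1 (GCGC, any base, TGCGC), ETS family factors such as GABP (CCGGAAG), estrogen-related receptors (AAGGTCA), MEF2 (CTA, any 4 bases, TAG) and SP1 (GGGCGG), to the E-box CAGCTG, and to the TATA sequence TATAAA.
Cox7a1: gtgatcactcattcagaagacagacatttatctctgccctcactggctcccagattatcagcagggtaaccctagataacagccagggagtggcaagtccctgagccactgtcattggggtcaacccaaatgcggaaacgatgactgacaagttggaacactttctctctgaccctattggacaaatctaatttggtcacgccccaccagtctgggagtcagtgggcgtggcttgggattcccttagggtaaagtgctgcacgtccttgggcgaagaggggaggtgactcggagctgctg
Cox7a2: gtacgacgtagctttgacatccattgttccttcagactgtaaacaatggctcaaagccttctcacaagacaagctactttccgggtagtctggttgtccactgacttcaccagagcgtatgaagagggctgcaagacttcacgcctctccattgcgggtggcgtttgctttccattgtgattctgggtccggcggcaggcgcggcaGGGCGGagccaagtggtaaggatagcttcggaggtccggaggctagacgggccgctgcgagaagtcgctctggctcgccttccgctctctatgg
Cox8b: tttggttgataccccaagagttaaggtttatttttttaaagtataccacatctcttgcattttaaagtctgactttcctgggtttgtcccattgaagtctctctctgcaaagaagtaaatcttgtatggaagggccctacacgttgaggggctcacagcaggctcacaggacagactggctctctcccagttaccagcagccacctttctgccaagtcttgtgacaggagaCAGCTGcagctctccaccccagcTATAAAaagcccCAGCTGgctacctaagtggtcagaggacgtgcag
Cox8a: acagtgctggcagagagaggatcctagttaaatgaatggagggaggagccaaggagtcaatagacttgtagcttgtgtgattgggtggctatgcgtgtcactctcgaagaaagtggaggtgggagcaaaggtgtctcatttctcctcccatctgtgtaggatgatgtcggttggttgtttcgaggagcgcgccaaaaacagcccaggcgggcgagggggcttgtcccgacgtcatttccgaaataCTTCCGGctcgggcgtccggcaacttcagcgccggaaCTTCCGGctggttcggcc
Cox6a1: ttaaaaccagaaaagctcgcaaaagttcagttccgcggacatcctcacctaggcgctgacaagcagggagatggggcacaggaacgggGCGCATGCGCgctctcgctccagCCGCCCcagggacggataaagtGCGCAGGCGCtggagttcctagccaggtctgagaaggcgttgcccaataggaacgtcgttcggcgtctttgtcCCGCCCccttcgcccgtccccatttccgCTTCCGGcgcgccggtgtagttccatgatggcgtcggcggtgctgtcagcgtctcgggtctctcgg
Sdhd: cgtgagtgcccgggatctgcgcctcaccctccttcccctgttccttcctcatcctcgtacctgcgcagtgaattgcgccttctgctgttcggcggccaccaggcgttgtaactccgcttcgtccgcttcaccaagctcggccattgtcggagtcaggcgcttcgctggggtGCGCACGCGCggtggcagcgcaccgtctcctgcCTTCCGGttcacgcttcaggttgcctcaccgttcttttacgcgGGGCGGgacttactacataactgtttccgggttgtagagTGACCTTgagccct

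The Cox7a1 window (chr7:30183921-30184220, plus strand) held none of these motifs, and that of Cox7a2 (chr9:79759804-79760103, minus strand) held an SP1 match. The Cox8b window (chr7:140900397-140900696, minus strand) held 2 E-boxes and a TATA sequence, while the Cox8a window (chr19:7217567-7217866, minus strand) held 2 ETS matches. The Cox6a1 window (chr5:115348909-115349208, minus strand) held 2 NRF1 matches, 2 SP1 matches and 1 ETS match. That of Sdhd (chr9:50603800-50604099, minus strand) held 1 match each to the NRF1, ETS, SP1 and estrogen-related receptor motifs. The printed windows held 7 CG dinucleotides for Cox7a1, 2 for Cox8b, 20 for Cox7a2, 19 for Cox8a, 32 for Cox6a1 and 29 for Sdhd. No difference between muscle-type and other genes is read from these counts, since Cox6a2 had no window and those of Cox7b and Ndufc2, which are no muscle-type forms, held 5 and 8.

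Promoter windows were found for 65 of the 78 genes, 70 windows in all, and were set beside 20520 windows of 16918 genes measured on the arrays. The NRF1 motif stood in 16 windows of the respiratory chain genes (22.9%), against 6.48% of all windows. The ETS motif stood in 17 (24.3%), against 11.4%, and the estrogen-related receptor motif in 6 (8.57%), against 4.06%. The E-box, whose letters are read by muscle regulatory factors, stood in 6 (8.57%), against 16.2%, and the MEF2 motif in 1 (1.43%), against 3.63%. The SP1 motif stood in 29 (41.4%), against 46.6%, and the TATA sequence in 9 (12.9%), against 12.3%. The median GC content was 57.5% in the respiratory chain windows and 56.7% in all windows, and the median number of CG dinucleotides was 19 and 13. A match describes these letters only and was not tested as a binding site.

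Some facts of the samples touch these results. Endothelial markers were well expressed in the tumors, with a mean log2 intensity over 10 genes between 9.87 and 10.86, against 8.52 to 8.65 in aortas and 7.77 to 8.17 in muscles. Dicer1 lay between 8.17 and 8.80 in tumors, 8.02 and 8.40 in aortas, and 8.28 and 8.91 in muscles; the position of its probes relative to the floxed part is not known here, so it does not check the deletion. Heart muscle markers (8 genes) had means of 5.32 to 5.77 in tumors and 9.12 to 9.93 in the samples labelled aorta, and brown adipocyte markers (8 genes) had means of 4.82 to 7.61 in tumors and 9.41 to 9.79 in aortas. The sternocleidomastoid samples carried brown adipocyte markers too (means of 7.09 to 8.39), and among the quadriceps samples quadriceps 4 stood apart with 6.79, against 5.24 to 5.40 in the other 3. In tumors 1 to 2 of 8 heart muscle markers were above the array median, against 8 of 8 in aortas, and 0 to 7 of 8 brown adipocyte markers, against 7 of 8 in aortas; Myl7, the atrial light chain, was between 4.17 and 4.48 in tumors and between 10.94 and 11.78 in aortas. Heart muscle and brown adipocytes are both rich in the genes described here, and their part in the difference between tumors and aortas was not tested. Macrophage markers were higher in tumors for 6 of 7 genes against aortas and for 6 of 7 against muscle (median differences 1.56 and 1.86), with means of 8.39 to 9.44 in tumors, against 7.15 to 7.43 in aortas and 6.55 to 7.46 in muscles. Smooth muscle markers were lower in tumors than in aortas for 5 of 6 genes (median -1.40), and 5 were higher and 1 lower than in muscle (median 1.57), with means of 8.52 to 10.03 in tumors, against 10.29 to 10.80 in aortas and 7.33 to 7.87 in muscles. Among all genes, 17.5% were lower and 18.6% higher in tumors than in aortas, and 25.7% lower and 25.3% higher than in muscle. The part of these cell types in the results was not tested.

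Of the 78 genes, 70 were lower in tumors than in aortas, none was higher and 8 did not pass the threshold of an adjusted p under 0.05 (limma, Benjamini-Hochberg over all 22180 genes, 7 against 4 arrays). Over all genes measured, 17.5% were lower and 18.6% higher in this comparison. The median difference was -1.54 on the log2 scale for the respiratory chain genes and -0.022 for all genes, and 60 of the 70 genes differed at least 2-fold, where 5.9% of all genes were lower by as much. Every tumor lay below every aorta for 68 of the 78 genes, which held for 11.5% of all genes. These are bulk samples, in which fewer cells of a type and less RNA per cell cannot be told apart.

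Against skeletal muscle (8 arrays, each of the 2 muscles weighted equally), 70 of the 78 genes were again lower in tumors, 2 were higher and 6 did not pass; 25.7% of all genes were lower and 25.3% higher in this comparison. The median difference was -1.49 for the respiratory chain genes, against -0.038 for all genes, and 57 genes were lower by at least 2-fold, where 7.77% of all genes were. Every tumor lay below every muscle sample for 67 genes, a pattern shown by 12.7% of all genes. The 2 tumor comparisons share the tumor arrays, and 68 genes were lower in both. Set against quadriceps alone, 69 of the 78 genes were lower, where 22.0% of all genes were. In 3 of those 4 samples at most 2 of 8 brown adipocyte markers were above their array's median, with Ucp1 below it. Of 8 heart muscle markers, 2 to 3 were above it in the 4 samples, and Myl7 was below it, between 4.66 and 4.92. The part of either cell type in this count was not tested.

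**Figure D1:**
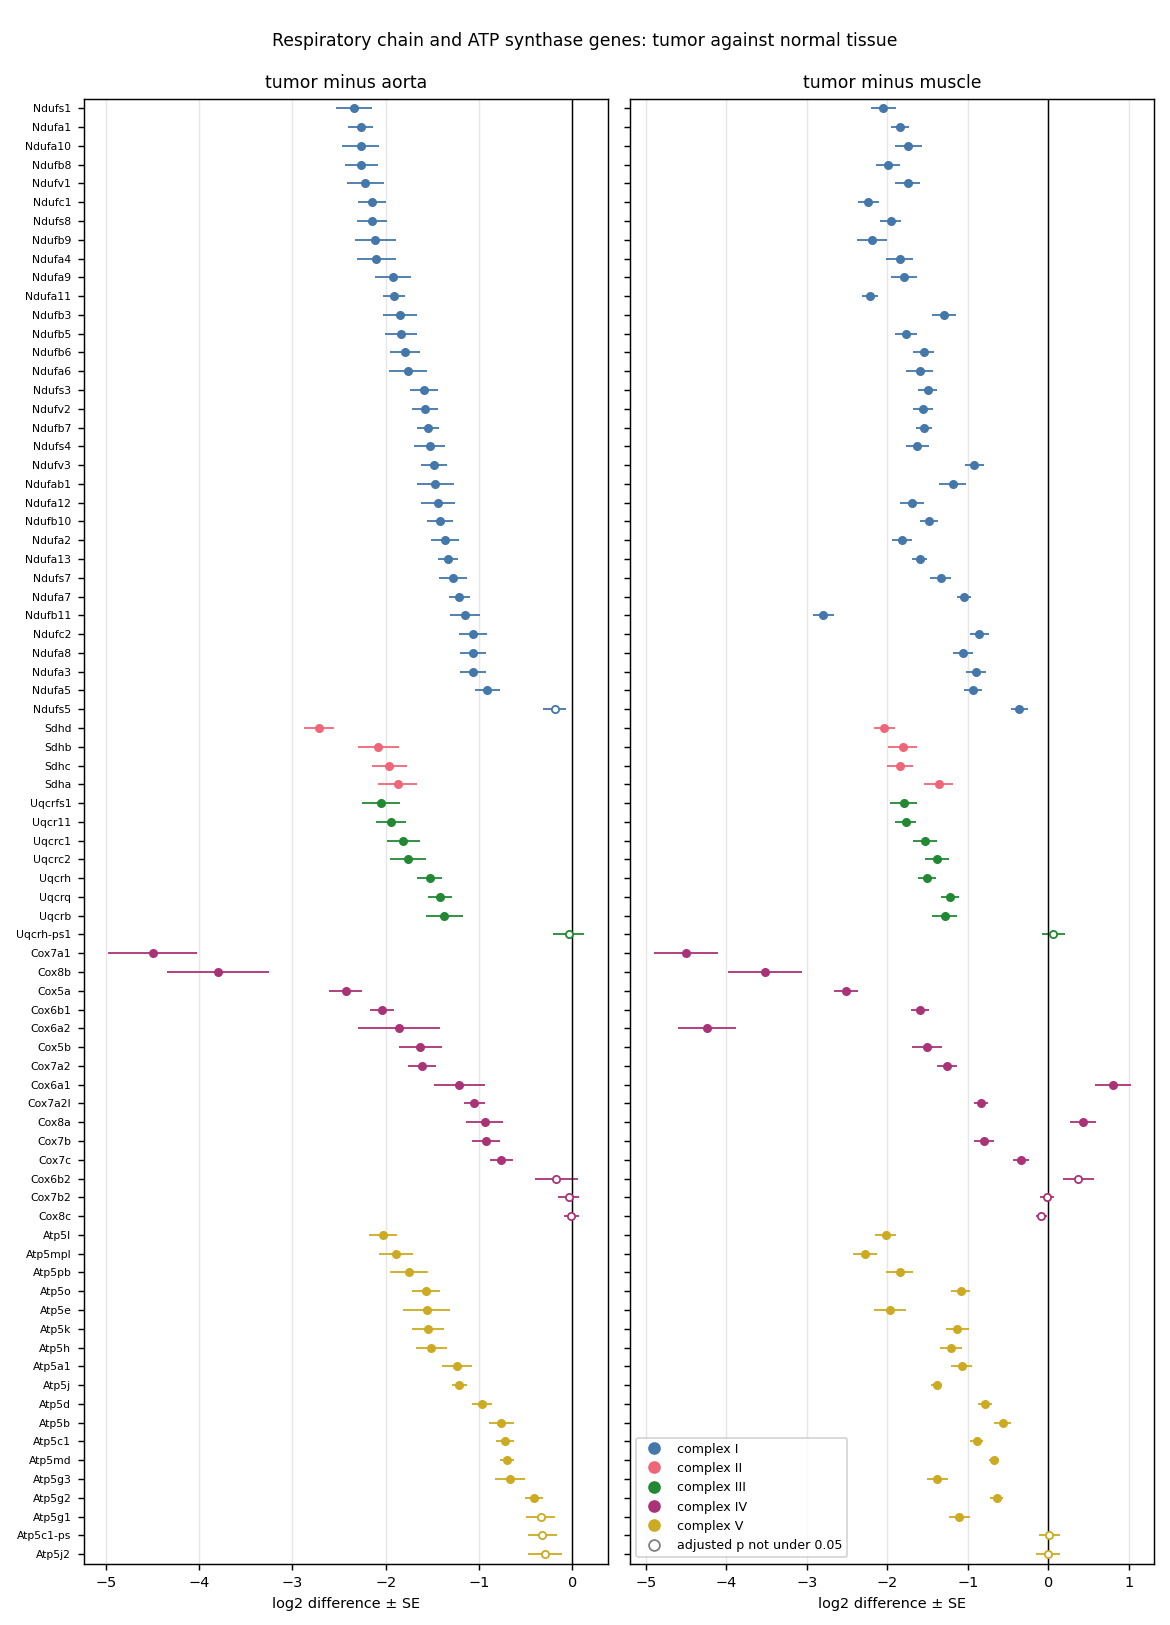
Differences in mean log2 intensity, tumor minus aorta on the left and tumor minus muscle on the right, with standard errors, for each of the 78 genes, coloured by complex. Filled points passed an adjusted p under 0.05 in limma. Nearly all points lie left of 0, with Cox7a1 and Cox8b farthest left against aorta, and Cox6a1 and Cox8a right of 0 against muscle.

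Complex I takes electrons from NADH. Of its 33 genes, 32 were lower in tumors than in aortas (median difference -1.58, all genes of the complex between -2.34 and -0.19), and 33 of 33 were lower than in muscle (median -1.60). Ndufs1, which encodes the large iron-sulfur subunit of the electron input arm, had 7.99, 7.95, 8.11, 8.36, 9.21, 7.84 and 7.81 in the 7 tumors, against 10.45, 10.60, 10.42 and 10.59 in the aortas. Every tumor was below every aorta, and tumor 5 stood above the others. The difference was -2.34 ± 0.19 (SE), or 5.05-fold lower (limma adjusted p = 2.23e-08). Against muscle it was -2.05 ± 0.16 (adjusted p = 1.52e-09), with muscle arrays between 9.87 and 10.64.

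Ndufa1, an accessory subunit of the membrane arm, ranged from 6.87 to 7.67 in tumors (median 7.06), against 9.34, 9.52, 9.28 and 9.57 in aortas. The groups did not overlap, and the difference of -2.27 ± 0.13 had the smallest adjusted p of the 78 genes in this comparison (limma, 3.21e-10). Ndufa10, another accessory subunit, was lower by about as much (-2.27 ± 0.20, adjusted p = 6.07e-08). Ndufa4, between 8.95 and 10.52 in tumors and between 11.62 and 11.83 in aortas, was lower by 4.28-fold in tumors (-2.10 ± 0.21, adjusted p = 2.66e-07). The one complex I gene that did not pass against aortas was Ndufs5, at -0.19 ± 0.12 (adjusted p = 0.26). Its signal was dim, with tumors between 5.43 and 5.77 and aortas between 5.56 and 5.93.

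Complex II, succinate dehydrogenase, oxidises succinate in the citric acid cycle and is the one complex encoded wholly in the nucleus. All 4 of its genes were lower in tumors in both comparisons, with a median of -2.02 against aortas and -1.83 against muscle. Sdhd, whose promoter is printed above, had 8.54, 8.61, 8.43, 8.80, 9.54, 8.36 and 8.53 in the tumors, against 11.27, 11.38, 11.41 and 11.55 in the aortas. Tumor 5 was again the highest and still lay well below every aorta. The difference was -2.72 ± 0.16, or 6.57-fold lower (limma adjusted p = 5.97e-10). In muscle Sdhd lay between 10.80 and 11.04 in sternocleidomastoids and between 10.44 and 10.62 in quadriceps, and the tumors differed from muscle by -2.04 ± 0.13 (adjusted p = 1.39e-10).

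The iron-sulfur subunit Sdhb was lower by -2.08 ± 0.22 against aortas, the other membrane anchor Sdhc by -1.96 ± 0.19 and the flavoprotein Sdha by -1.87 ± 0.21, with limma adjusted p between 2.1e-07 and 1.31e-06. For Sdha the tumors ranged from 9.69 to 11.19 (median 9.89), against 12.04 to 12.12 in aortas. None of the 3 genes overlapped between these groups.

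Complex III, the cytochrome bc1 complex, had 7 of 8 genes lower in tumors than in aortas and 7 of 8 lower than in muscle (medians -1.65 and -1.45). The Rieske iron-sulfur protein gene Uqcrfs1 had 6.73, 7.16, 6.67, 7.26, 8.17, 7.07 and 6.69 in tumors, against 9.08, 9.16, 9.14 and 9.23 in aortas. All tumors were below all aortas, by -2.05 ± 0.20 (limma adjusted p = 2.23e-07). The small subunit gene Uqcr11 was lower by -1.94 ± 0.16 (adjusted p = 2.18e-08) and the core protein gene Uqcrc1 by -1.81 ± 0.18 (adjusted p = 2.2e-07). The remaining one, the pseudogene Uqcrh-ps1, stood near the bottom of the scale in tumors (2.95 to 3.47) and in aortas (3.06 to 3.77), with a difference of -0.04 ± 0.17 (adjusted p = 0.887).

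Complex V had 15 of 18 genes lower in tumors than in aortas and 16 of 18 lower than in muscle (medians -1.09 and -1.10). Atp5l, for the membrane subunit g, had 7.68, 7.40, 7.53, 7.37, 8.36, 7.37 and 7.50 in tumors, against 9.43, 9.86, 9.43 and 9.80 in aortas. No tumor reached the aortas, and the difference was -2.03 ± 0.15, 4.08-fold lower (limma adjusted p = 9.3e-09). Atp5mpl, for a small peptide that associates with the synthase, was lower by -1.89 ± 0.18 (adjusted p = 1.29e-07), and Atp5pb, for the peripheral stalk subunit b, by -1.75 ± 0.20 (adjusted p = 1.3e-06). The 3 genes that did not pass against aortas were Atp5g1, the pseudogene Atp5c1-ps and Atp5j2. Atp5e has 2 probe sets on the array: the brighter, used here, was lower in tumors than in aortas (-1.56, adjusted p = 4.97e-05), and the dimmer was not called (0.26, adjusted p = 0.475).

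Atp5g1, Atp5g2 and Atp5g3 encode the same mature protein, subunit c of the proton-carrying ring, with different import sequences. Atp5g3 had 8.69, 8.32, 8.44, 8.57, 9.44, 8.66 and 8.45 in tumors, against 9.24, 9.34, 9.26 and 9.47 in aortas and between 9.88 and 10.41 in muscle. Tumor 5 reached the aortas and the other 6 did not. Atp5g3 was lower by -0.67 ± 0.16 against aortas (limma adjusted p = 0.00193) and by -1.38 ± 0.13 against muscle (adjusted p = 2.5e-08). Atp5g2 was lower by -0.41 ± 0.10 (adjusted p = 0.00255) and -0.64 ± 0.08 (adjusted p = 1.44e-06). Atp5g1 was dim in tumors (5.06 to 5.59) and in aortas (5.52 to 5.99), with a difference of -0.34 ± 0.16 (adjusted p = 0.103), and was lower than in muscle by -1.11 ± 0.13 (adjusted p = 6.23e-07). With values near or below the array medians in tumors and aortas, the Atp5g1 differences are limited by dim signal. The call for Atp5g2 against aortas was lost after quantile normalization (-0.16, adjusted p = 0.203), and that for Atp5g3 with tumors 5 to 7 alone (-0.48, adjusted p = 0.0661).

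**Figure D2:**
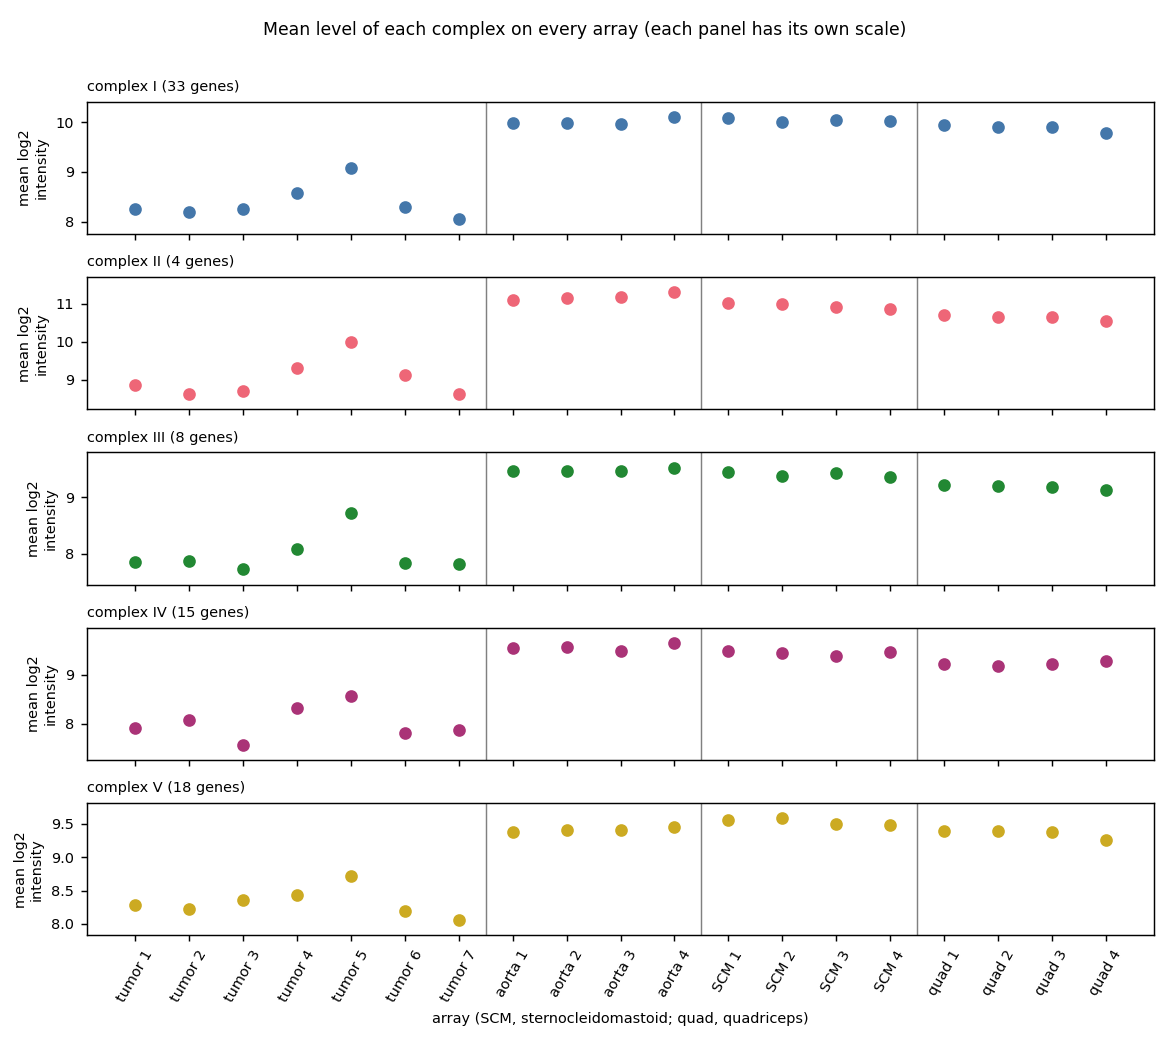
Mean log2 intensity over the genes of each complex on each of the 19 arrays, 1 panel per complex, with tumors at the left, then aortas, sternocleidomastoids (SCM) and quadriceps (quad). In all 5 panels the 7 tumors lie below the 12 normal samples, and tumor 5 is the highest of the tumors.

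Complex IV had 12 of 15 genes lower in tumors than in aortas (median -1.21), and 10 lower and 2 higher than in muscle (median -0.84). It also held the genes with the widest differences of the 78. Cox7a1, the muscle form of subunit 7a, had 6.71, 7.06, 5.40, 8.90, 8.96, 6.04 and 7.38 in tumors, against 11.72, 11.66, 11.64 and 11.81 in aortas. Tumors 4 and 5 were the highest and tumor 3 the lowest, and all lay far below the aortas. The difference was -4.50 ± 0.48, 22.6-fold lower (limma adjusted p = 6.38e-07). Tumor 3, at 5.40, lay below the array medians (5.83 to 5.94), so its part of the difference is limited by the array's low end. Muscles ran from 11.51 to 11.85, and the tumors were lower than these by -4.50 ± 0.40 (adjusted p = 1.18e-08).

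Cox8b, the muscle form of subunit 8, had 8.17, 7.75, 6.52, 10.25, 10.96, 8.69 and 7.74 in tumors, against 12.37, 12.41, 12.28 and 12.49 in aortas. The order resembled that of Cox7a1, with tumors 4 and 5 highest and tumor 3 lowest. Cox8b was 14-fold lower in tumors than in aortas (-3.80 ± 0.55, limma adjusted p = 1.98e-05) and 11.5-fold lower than in muscle (-3.52 ± 0.46, adjusted p = 1.93e-06), where it lay between 12.02 and 12.26. Tumors 4 and 5 also had Ucp1, the uncoupling protein that defines brown fat, at 11.08 and 10.47. It was between 4.39 and 4.81 in the other 5. Among those 5 the brown adipocyte marker mean was highest in tumor 6 (5.50), the highest of them for Cox8b but not for Cox7a1. Cox7a1 was highest of them in tumors 7 and 2, which had their highest skeletal muscle marker means (9.36 and 10.32). The part of either cell type in these 2 genes was not tested. Without tumors 4 and 5, Cox7a1 was at -5.19 and Cox8b at -4.61 against aortas. In quadriceps 1 to 3, Ucp1 was between 4.68 and 4.89 while Cox7a1 was between 11.56 and 11.78.

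Cox6a2, the muscle form of subunit 6a, behaved differently across tissues. It had 8.74, 9.31, 7.28, 7.83, 5.91, 6.56 and 7.99 in tumors, against 9.44, 9.68, 9.04 and 9.92 in aortas, 11.82, 11.90, 12.04 and 11.62 in sternocleidomastoids, and 12.12, 11.91, 11.95 and 11.87 in quadriceps. Tumor 2 overlapped the aortas, the aortas lay well below both muscles, and tumor 5, highest for most of the other genes, was the lowest here. Cox6a2 was 3.63-fold lower in tumors than in aortas (-1.86 ± 0.44, limma adjusted p = 0.00223) and 18.9-fold lower than in muscle (-4.24 ± 0.36, adjusted p = 6.77e-09). In aortas it was lower than in muscle by -2.38 ± 0.43 (adjusted p = 0.000212). The skeletal muscle marker Ckm, muscle creatine kinase, was highest in tumor 2 (10.87) and lowest in tumor 5 (5.51), the same tumors as for Cox6a2; the mean of 12 skeletal muscle markers ranged from 5.11 to 10.32 over the tumors, against 12.06 to 12.42 in muscle. In aortas 1 to 4 this mean was 7.74, 5.34, 7.40 and 5.52, so it varied between the aortas too. The part of admixed muscle in these values was not tested.

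The widely expressed partners differed by less in the subunit 7a and 8 pairs, which were tested within arrays as given further on. Cox7a2 ranged from 9.79 to 10.80 in tumors (median 9.88), against 11.56 to 11.70 in aortas and 11.16 to 11.46 in muscle, and was lower by -1.61 ± 0.15 and -1.26 ± 0.12 (limma adjusted p = 7.53e-08 and 2.99e-08). Cox8a had 10.80, 10.62, 10.88, 11.23, 11.79, 11.37 and 10.94 in tumors, against 11.94, 12.07, 12.07 and 12.04 in aortas, 11.02, 11.02, 10.61 and 10.86 in sternocleidomastoids, and 10.22, 10.18, 10.22 and 11.14 in quadriceps. Its tumor values lay below the aortas and overlapped the muscles. Cox8a was lower than in aortas (-0.94 ± 0.20, adjusted p = 0.00095) and higher than in muscle (0.43 ± 0.16, adjusted p = 0.0357). The call against muscle was lost when any one of 8 arrays was left out (tumors 4, 5 and 6, quadriceps 1, 2 and 3, sternocleidomastoids 3 and 4; 0.31 to 0.43), and its sign turned after centring on housekeeping genes (-0.21).

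Cox6a1 had 11.49, 11.46, 11.85, 12.02, 12.60, 11.87 and 11.54 in tumors, against 13.04, 12.98, 13.14 and 13.00 in aortas, 11.79, 11.77, 10.81 and 11.76 in sternocleidomastoids, and 10.24, 10.16, 10.08 and 11.63 in quadriceps. Tumors were below all aortas, above 3 of 4 quadriceps, and overlapped the sternocleidomastoids. The difference was -1.21 ± 0.27 against aortas (limma adjusted p = 0.00143) and 0.80 ± 0.22 against muscle (adjusted p = 0.00507). Against sternocleidomastoid alone it was 0.30 (adjusted p = 0.395), and after centring on housekeeping genes 0.17 (adjusted p = 0.488). For Cox6a1 and Cox8a quadriceps 4, the one that stood apart in brown adipocyte, general adipocyte and macrophage markers, was above the other 3.

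**Figure D3:**
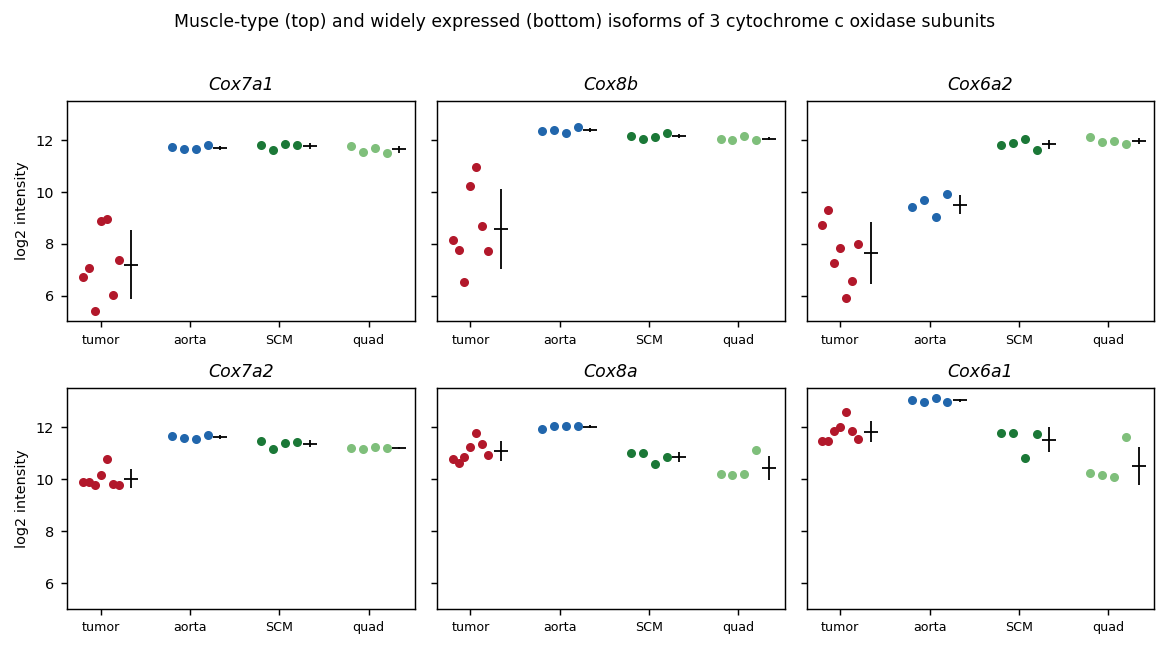
Log2 intensity of the muscle-type isoforms Cox7a1, Cox8b and Cox6a2 (top row) and of their widely expressed partners Cox7a2, Cox8a and Cox6a1 (bottom row) in tumors, aortas, sternocleidomastoids (SCM) and quadriceps (quad). Points are arrays and the black bars show mean ± SD. Tumors are far below the other tissues for Cox7a1 and Cox8b, and for Cox6a2 the aortas lie between tumors and muscles.

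To compare isoforms without setting one probe set's level against another's, the log2 difference muscle form minus widely expressed form was taken within each array, and its shift between groups was tested by a two-sided exact permutation test, adjusted over 15 tests of 5 pairs. The subunit 7a difference averaged -2.82 ± 1.08 (SD, n = 7) in tumors, against 0.08 ± 0.03 (n = 4) in aortas and 0.42 ± 0.08 (n = 8) in muscle. The shifts were -2.89 against aortas (exact p = 0.00606, adjusted 0.0152) and -3.24 against muscle (exact p = 0.000311, adjusted 0.00117), each the smallest p that these group sizes allow. Both groups were separated from the tumors without overlap.

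The subunit 8 difference was -2.51 ± 1.24 (SD, n = 7) in tumors, against 0.36 ± 0.11 (n = 4) in aortas and 1.45 ± 0.40 (n = 8) in muscle, shifts of -2.87 (exact permutation, adjusted p = 0.0152) and -3.95 (adjusted p = 0.00117). The subunit 6a difference was -4.17 ± 1.54 in tumors, against -3.52 ± 0.44 in aortas and 0.87 ± 0.89 in muscle. It shifted against muscle (-5.05, exact permutation, adjusted p = 0.00117), and against aortas the shift was -0.65 (adjusted p = 0.524) with overlapping groups. For subunit c of the ATP synthase, Atp5g2 minus Atp5g3 was 2.83 ± 0.26 in tumors, against 2.09 ± 0.21 in muscle, a shift of 0.74 (exact permutation, adjusted p = 0.00117). Against aortas that shift was 0.27 (adjusted p = 0.182), and Atp5g1 minus Atp5g3 shifted by 0.33 against aortas and 0.27 against muscle (adjusted p = 0.386 and 0.336).

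The other complex IV genes were lower in both comparisons or dim. Cox5a, one of the nuclear subunits found in all tissues, had 7.87, 7.77, 7.31, 8.13, 8.67, 7.27 and 7.76 in tumors, against 10.24, 10.24, 10.21 and 10.32 in aortas, 5.39-fold lower (-2.43 ± 0.18, limma adjusted p = 9.71e-09). Tumors and aortas did not overlap, and against muscle the difference was -2.51 ± 0.15 (adjusted p = 5.59e-11). Cox6b1 was lower than in aortas by -2.04 ± 0.13 (adjusted p = 1.74e-09), Cox7a2l, whose protein takes part in joining complexes III and IV into supercomplexes, by -1.05 ± 0.11 (adjusted p = 3.48e-07), and Cox7b by -0.93 ± 0.15 (adjusted p = 4.89e-05). Cox6b2, Cox7b2 and Cox8c, which are known as testis forms, did not pass in either comparison. Cox7b2 and Cox8c lay between 2.74 and 4.05 on all arrays. Cox6b2 was between 5.33 and 5.95 in 6 tumors and at 7.16 in tumor 2, against 5.95 to 6.18 in aortas, and without tumor 2 it was lower than in aortas (-0.38, adjusted p = 0.021).

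The 8 genes not called against aortas were also the 8 dimmest: their means over the 19 arrays ran from 3.02 to 5.93, and those of the 70 called genes from 6.36 to 12.48. Array medians over all genes were between 5.83 and 5.94. At such dim signals the array limits what could be seen, so no change is shown or denied for those 8. Among the called genes, the difference from aortas ran from 1.33-fold (Atp5g2) to 22.6-fold lower (Cox7a1), with limma adjusted p between 3.21e-10 and 0.00255.

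The tumors differed from each other more than the normal samples did. The median SD of the 78 genes was 0.38 over the tumors, against 0.10 over aortas, 0.09 over sternocleidomastoids and 0.09 over quadriceps; over all genes it was 0.21, 0.16, 0.16 and 0.14. The mean over the 78 genes was 8.19, 8.17, 8.12, 8.48, 8.90, 8.18 and 8.03 in the 7 tumors, against 9.75 to 9.86 in aortas, 9.77 to 9.83 in sternocleidomastoids and 9.54 to 9.64 in quadriceps. Tumor 5 had the highest tumor value for 62 of the 78 genes and tumor 7 the lowest for 28. Even tumor 5's mean lay below that of every normal sample.

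Tumors 4 and 5, which had the 2 highest means, were also those with brown adipocyte markers (7.28 and 7.61 over 8 genes, against 4.82 to 5.50 in the other 5 tumors). Markers of adipocytes in general were at 8.84 and 10.68 in these 2, but also at 10.11 in tumor 6, whose mean over the respiratory chain genes was 8.18. The part of either marker list in the spread of the tumors was not tested. Leaving out tumors 4 and 5, 70 genes were lower than in aortas and 70 lower than in muscle. With tumors 5 to 7 alone the counts were 69 and 69. The share of all genes lower in these subsets was not computed.

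**Figure D4:**
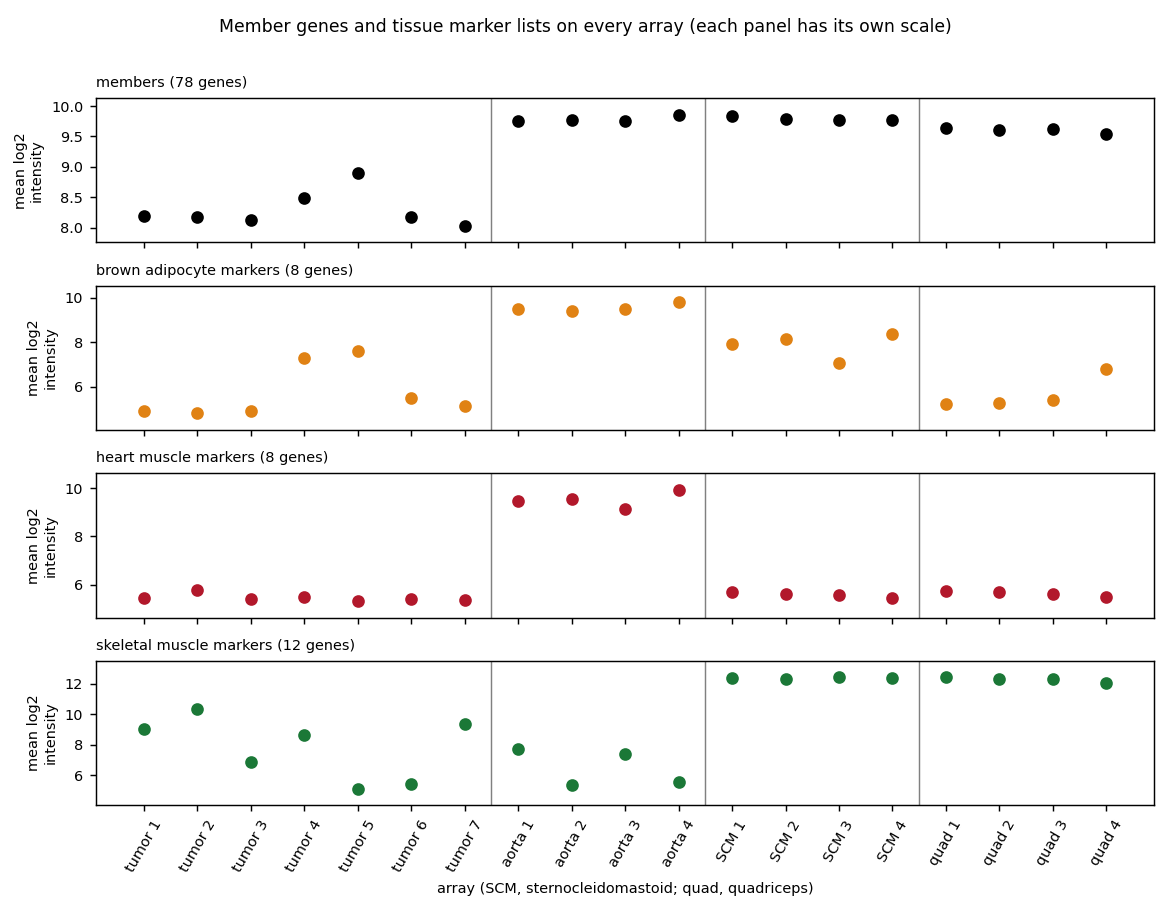
Mean log2 intensity over the 78 respiratory chain genes and over brown adipocyte, heart muscle and skeletal muscle marker lists on each of the 19 arrays. Tumors 4 and 5 carry brown adipocyte markers, and all aortas carry heart muscle and brown adipocyte markers. Skeletal muscle markers vary widely between tumors and also between aortas.

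In the fit of all 19 arrays, most of these genes did not pass the threshold between the normal tissues. Between aortas and muscle, 10 of the 78 were higher and 5 lower in aortas, where 17% and 15.3% of all genes were called; 63 did not pass, and the median difference was 0.14 (0.012 for all genes). After centring on housekeeping genes 3 were higher and 15 lower, where 9.66% and 32.5% of all genes were called. In a fit of the compared groups only, 31 were higher and 12 lower, where 22.2% and 17.9% of all genes were called. That fit leaves the spread of the tumors out of the p-values, and in it most of the 78 genes passed. Beyond the isoforms, the genes higher in aortas included Sdhd (0.68 ± 0.16, limma adjusted p = 0.00209), Ndufa1 (0.43 ± 0.12, adjusted p = 0.0112) and Cox6b1 (0.44 ± 0.13, adjusted p = 0.0129); the calls for Ndufa1 and Cox6b1 were lost under housekeeping centring and against sternocleidomastoid alone. The widely expressed Cox6a1 and Cox8a were higher by 2.01 ± 0.26 (adjusted p = 6.33e-06) and 1.37 ± 0.20 (adjusted p = 1.69e-05). Of the 5 lower genes, Cox6a2 had the largest difference, and Ndufb11, an accessory subunit of complex I, came next. Ndufb11 had 6.08, 5.88, 5.82 and 6.60 in aortas, against 7.52 to 7.84 in sternocleidomastoids and 7.59 to 8.03 in quadriceps (-1.65 ± 0.16, adjusted p = 1.3e-07). Its aorta values were near the array medians, so this difference is limited by the array's low end. Atp5g3 was lower by -0.70 ± 0.15 (adjusted p = 0.00128), and Atp5g1, dim in aortas and so limited by the array's low end, by -0.76 ± 0.16 (adjusted p = 0.000726).

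Between the 2 muscles none of the 78 genes passed the threshold in limma, against 0.234% of all genes higher and 0.198% lower in sternocleidomastoid. At an unadjusted p under 0.05, 5 of the 78 genes differed, where 7.06% of all genes did. The fit shares 1 spread per gene over all 19 arrays, so the spread of the tumors enters these p-values. The median SD of the 78 genes was 0.38 in tumors and 0.09 in each muscle. Over all genes it was 0.21 in tumors, 0.16 in sternocleidomastoids and 0.14 in quadriceps, so the limit weighs more on the 78 genes. Leaving out the tumors did not by itself bring calls for the isoforms looked at. In a limma fit of the 2 muscles only, Cox6a1 (adjusted p = 0.273), Cox8a (adjusted p = 0.452) and Atp5g3 (adjusted p = 0.506) still did not pass. The differences leaned to one side: 73 of 78 were positive, with a median of 0.19 (-0.004 for all genes), and for 30 genes every sternocleidomastoid lay above every quadriceps, which held for 4.0% of all genes. For none did every sternocleidomastoid lie below, which held for 3.6% of all genes. The slow fibre markers, whose fibres are rich in mitochondria, had means of 6.64 to 7.35 in sternocleidomastoids and 5.63 to 6.55 in quadriceps, and brown adipocyte markers were higher in sternocleidomastoids as given above; the part of either was not tested. For Cox6a1 the difference was 1.0 ± 0.30 (adjusted p = 0.282), and without quadriceps 4 it was 1.37 (adjusted p = 0.0108).

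Genes that build and serve the chain were mostly lower in tumors as well. Among all genes, 17.5% were lower in tumors than in aortas and 25.7% lower than in muscle. Assembly factors insert cofactors and join subunits; of 46 listed, 43 were measured, of which 42 were lower in tumors than in aortas and 43 lower than in muscle (medians -1.12 and -1.25). The one not called against aortas was Cox16, named here because it was the exception. Lyrm7, which helps insert the Rieske protein into complex III, had 3.94 to 5.95 in tumors (median 4.86), against 7.47 to 7.58 in aortas. The tumor values were near or below the array medians, so the difference of -2.62 ± 0.22 (limma adjusted p = 3.72e-08) is limited by the array's low end. Atpaf2, an assembly factor of the ATP synthase, was lower by -2.26 ± 0.19 (adjusted p = 3.1e-08) and the complex I factor Ndufaf1 by -2.24 ± 0.21 (adjusted p = 9.79e-08).

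Of the genes for cytochrome c and for making or handling ubiquinone, 11 of 12 listed were measured and all 11 were lower in tumors in both comparisons (medians -1.37 and -1.28). Coq10a had 7.49, 7.53, 7.24, 7.72, 8.39, 7.19 and 7.28 in tumors, against 9.95, 9.79, 10.01 and 10.06 in aortas (-2.40 ± 0.17, limma adjusted p = 3.73e-09). The groups were well apart. Coq9 and Coq5, both needed for ubiquinone synthesis, were lower by -2.12 ± 0.18 and -1.92 ± 0.20 (adjusted p = 4.09e-08 and 3.34e-07).

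Among subunits and partners that the symbol rule leaves out, Cyc1, the cytochrome c1 of complex III, was lower than in aortas by -2.29 ± 0.22 (limma adjusted p = 1.28e-07) and Cox4i1, the widely expressed form of subunit 4, by -1.49 ± 0.17 (adjusted p = 1.39e-06). Others went the opposite way. Ndufa4l2, a paralogue of Ndufa4 known to be induced by hypoxia, had 7.34, 8.13, 7.60, 6.91, 7.46, 7.85 and 8.09 in tumors, against 6.00, 6.55, 6.05 and 6.13 in aortas. All tumors were above all aortas, and above all muscles (6.32 to 6.55), with differences of 1.44 ± 0.18 (adjusted p = 3.35e-06) and 1.18 ± 0.15 (adjusted p = 1.3e-06). Atpif1, the inhibitor of ATP hydrolysis by the synthase, was higher by 0.82 ± 0.09 (adjusted p = 1.24e-06) and 0.91 ± 0.08 (adjusted p = 5.51e-09). Cox4i2, the form of subunit 4 known from lung and from low oxygen, was at 0.38 ± 0.18 against aortas (adjusted p = 0.107) and higher than in muscle by 0.53 ± 0.15 (adjusted p = 0.00429). Its muscle difference was -0.10 after centring on housekeeping genes, and its aorta difference passed without tumor 2 (0.46, adjusted p = 0.0384). The 13 subunits encoded in mitochondrial DNA had no probe set with a single symbol and were not analysed here.

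Most regulators of mitochondrial biogenesis were lower in tumors. Of 15, all measured, 11 were lower and 4 higher in tumors than in aortas, and 10 lower and 4 higher than in muscle. Of all genes, 17.5% were lower and 18.6% higher against aortas, and 25.7% and 25.3% against muscle. The number of higher regulators was near these shares, and nothing is read from it. Ppargc1a, the coactivator PGC-1α, had 4.63, 5.27, 4.22, 8.31, 7.32, 5.70 and 4.42 in tumors, against 8.95, 9.29, 9.42 and 10.42 in aortas and between 9.01 and 9.74 in muscle. Tumors 4 and 5 were again the highest, and no tumor reached the normal tissues. The difference was -3.83 ± 0.58 against aortas (limma adjusted p = 3.29e-05) and -3.69 ± 0.48 against muscle (adjusted p = 2.02e-06). In 5 of 7 tumors the gene was below the array median, so both differences are limited by the array's low end.

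Its relative Ppargc1b was lower than in aortas by -2.82 ± 0.24 (limma adjusted p = 4.07e-08), and Ppara, a nuclear receptor of fatty acid oxidation, by -3.64 ± 0.32 (adjusted p = 6.15e-08). The estrogen-related receptor Esrra, whose motif was counted above, was lower by -0.93 ± 0.09 (adjusted p = 1.77e-07), and Tfam, the mitochondrial DNA packaging and transcription factor, by -0.60 ± 0.12 (adjusted p = 0.00066). These 4 genes were lower in tumors than in muscle as well. Gabpa, which encodes the DNA-binding subunit of GABP, was lower than in aortas by -0.31 ± 0.10 (adjusted p = 0.0194) and at 0.03 ± 0.08 against muscle (adjusted p = 0.766). That call was lost without aorta 2 (-0.27, adjusted p = 0.0701) or aorta 4 (-0.22, adjusted p = 0.111).

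Nrf1, which encodes the factor of the NRF1 motif counted above, was higher in tumors. It had 7.73, 7.47, 7.77, 7.64, 7.26, 7.31 and 7.65 in tumors, against 6.93, 7.04, 6.86 and 7.02 in aortas and between 6.78 and 7.15 in muscle. Every tumor lay above every normal sample, by 0.59 ± 0.10 against aortas (limma adjusted p = 0.000131) and 0.58 ± 0.08 against muscle (adjusted p = 8.15e-06). After centring on housekeeping genes, which were themselves higher in tumors, these values were 0.17 (adjusted p = 0.166) and -0.06.

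**Figure D5:**
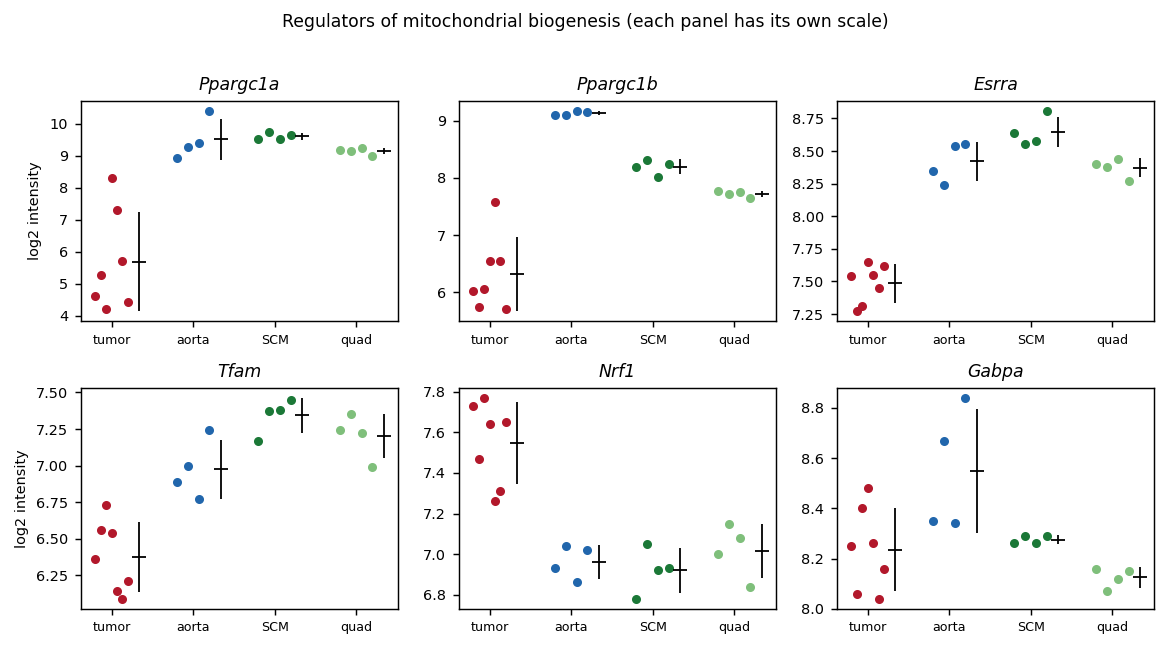
Log2 intensity of 6 regulators of mitochondrial biogenesis in tumors, aortas, sternocleidomastoids (SCM) and quadriceps (quad), each panel on its own scale. Points are arrays and black bars show mean ± SD. Ppargc1a, Ppargc1b, Esrra and Tfam are lower in all tumors than in all normal samples, Nrf1 is higher in all tumors, and Gabpa overlaps.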

How the data were processed

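RNA of 7 tumors, 4 aortas and 8 muscles was measured on 1-colour Affymetrix arrays. The deposited values were taken to be log2 intensity, since they ran from 1.6 to 13.8 with array medians of 5.35 to 5.48 over 41345 probe sets. Per the submitters' processing notes Partek 6.6 was used; how background and scale were handled is not given in the sources used here. Sorted values differed between arrays by at most 0.43 (median 0.14), and no scaling was added. Of the probe sets, 23521 carried 1 gene symbol, 1814 several and 16010 none in the platform annotation. For a gene with several probe sets the brightest on average was kept, giving 22180 genes; 9 of the 78 genes had more than 1 probe set. A further 9 symbols of the families (among them Cox6c, Ndufb2 and Uqcr10) occur on shared probe sets only and were not used.

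All 19 arrays were fitted in limma 3.58.1 (R 4.3.3) with 1 mean per group, lmFit and eBayes, two-sided, with Benjamini-Hochberg adjustment over all genes and a threshold of 0.05. Muscle is the mean of the 2 muscle groups. Isoform differences were tested by exact permutation over samples. On simulated data for tumor minus aorta over 22180 genes, 60% of genes changed by 0.5 log2 units, 92% by 1 and 100% by 2 were recovered (50 genes each, with 9 false calls). The simulation used normal values with 1 SD per gene in all groups and changed few genes. In the data the tumors varied more than the normal samples and far more genes were called, so these rates need not hold there. The number of arrays limits the precision. Alternatives covered centring, quantile normalization, dim genes, probe set choice, variance model, sample subsets and each array left out.

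The genes, lists and tests were chosen with earlier results of these data known. Genes were named by rule: in each complex the 3 called genes with the largest tumor minus aorta difference and the 1 with the smallest, all listed tissue isoforms, the Sdh genes, genes higher in tumors, and 2 or 3 leaders and preselected genes of each pathway list. Cox16, Atpif1, Atp5e, Ndufb11, Dicer1, Ucp1, Myl7 and Ckm were named outside it, after their values were seen. Promoters came from RefSeq (GRCm38.p6), matched by Entrez gene identifier, and the printed ones were picked by symbol.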

Additional observations from a re-analysis of the deposited data

Results flagged for a closer look

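Of 152 groups of 4 to 7 arrays examined for a single sample far from the rest of its group, 21 (13.8%) had one, where chance flags about 1 in 20. In 7 of these the sample was tumor 5, always above the other 6: Ndufs1 at 9.21 (others 7.81 to 8.36), Sdhd at 9.54 (8.36 to 8.80), Uqcrfs1 at 8.17 (6.67 to 7.26), Atp5l at 8.36 (7.37 to 7.68), Cox6b1 at 9.54 (8.66 to 8.96), Cox7a2 at 10.80 (9.79 to 10.17) and Atp5g3 at 9.44 (8.32 to 8.69). The testis form Cox6b2 was at 7.16 in tumor 2 and at most 5.95 in the others.

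Quadriceps 4, which carried brown adipocyte markers and was also higher in general adipocyte and macrophage markers, stood apart from the other 3 in 8 instances. It was higher for Cox6a1 (11.63, others 10.08 to 10.24) and Cox8a (11.14, others 10.18 to 10.22), and lower for Ndufs1 (9.87, others 10.08 to 10.09), Uqcrfs1 (8.50, others 8.78 to 8.80), Uqcrc1 (11.24, others 11.40 to 11.43) and Atp5mpl (9.65, others 9.78 to 9.80). Its muscle minus widely expressed isoform difference was 0.24 for subunit 6a (others 1.75 to 1.88) and 0.88 for subunit 8 (others 1.81 to 1.93). The part of any of these marker lists in these values was not tested.

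Sternocleidomastoid 3 was low for Cox6a1 (10.81, others 11.76 to 11.79) and Uqcrfs1 (8.86, others 9.15 to 9.19), and had the lowest brown adipocyte marker mean of its group (7.09). Aorta 2 was low for Uqcrc1 (11.57, others 11.79 to 11.82) and Atp5g2 (11.82, others 11.91 to 11.92), and quadriceps 3 was high for Cox8b (12.15, others 12.02 to 12.03).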

How the results depend on the processing

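Of 6881 values recomputed under alternative settings, 6692 kept their side of the threshold or stayed close in count. These include values that passed in neither setting but changed sign. An example is Cox4i2 against aortas, at 0.38 and, after centring on housekeeping genes, -0.042. Of the rest, 86 lost their call, 67 gained one, 31 moved and 5 changed sign with a call in either setting. The counts of lower genes were 69 to 71 against aortas and 69 to 70 against muscle, apart from the 2-fold limit (60 and 57) and centring on housekeeping genes (78 and 75), which shifts every gene of an array alike. The share of all genes lower under that centring was not computed for the tumor comparisons. Genes higher in tumors than in muscle (2) numbered 1 with centring on the median gene, 0 with centring on housekeeping genes, 1 with one variance per group, 1 with the compared groups only, 1 at a threshold of 0.01, 0 at 2-fold, 0 against sternocleidomastoid only, 1 without tumors 4 and 5, 1 with tumors 1 to 4, 3 with tumors 5 to 7, and 1 to 2 when single arrays were left out. Genes lower in aortas than in muscle (5) numbered 9 with median centring, 15 with housekeeping centring, 11 with one variance per group, 12 with the compared groups only, 2 at 2-fold and 5 to 8 with single arrays left out. Those higher in aortas (10) numbered 3 with housekeeping centring, 20 with one variance per group, 31 with the compared groups only, 5 at 0.01, 2 at 2-fold, 4 against sternocleidomastoid only and 8 to 19 with single arrays left out. For aortas against muscle, the share of all genes under alternative settings was computed only for housekeeping centring and the compared groups, as given above. The share of all genes higher in tumors than in muscle was not computed under the alternative settings. Counts there may therefore follow the calls over all genes. Between muscles, 0 to 1 genes were higher when single arrays were left out. The isoform shift of Atp5g1 against Atp5g3 was 0.44 and 0.55 against muscle without tumors 4 and 5 and with tumors 1 to 4 (0.20 to 0.46 with single arrays left out), and 0.61 against aortas with tumors 1 to 4. For Atp5g2 against Atp5g3 it was 0.35 and 0.41 against aortas in these subsets, and 0.22 to 0.36 with single arrays left out. With tumors 5 to 7 the shifts of subunits 7a and 8 against aortas were -2.76 and -2.60 and no longer passed, in groups too small to pass after adjustment. Housekeeping genes were 0.42 higher in tumors than in aortas and 0.64 higher than in muscle, so that centring lowers every tumor value by as much. It turned Uqcrh-ps1 to -0.57, Cox8a to -0.21, Cox4i2 to -0.10, Nrf1 to -0.061 and Gabpa to -0.60 against muscle. No paired analysis was possible because the samples carry no replicate number in their labels. The labels give no batch; the origin of the heart and brown fat markers in the aortas was not tested; signal near the array medians limits the 8 dimmest genes; and 1 probe set stands for each gene.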
